A study of Mus musculus with 9 samples.

Results

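The genes of glycolysis, of lactate handling and of pyruvate entry into mitochondria were examined in testes of Tmem203 null and wild-type (WT) mice. The list of 43 genes was chosen by what they encode and not by a threshold on their values, but with earlier results of these data known. Of these, 40 were read by at least 1 probe set annotated to a single gene, with 74 such probe sets in all, out of 18193 genes and 45037 probe sets on the arrays. One gene, Gapdh, was read by the manufacturer's control probe sets alone, because its other probe sets were annotated to several genes. Gpi1 and Eno1 had no probe set with a single symbol and are not analysed here. Each gene is given by its probe set with the highest mean over the 9 arrays, and other probe sets are given where they differ in call.

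Testis RNA of mice on the C57BL/6J background, untreated and 24 weeks of age, was profiled in 4 WT and 5 Tmem203 null samples on Affymetrix mouse expression arrays, 1 array per sample. The null allele is a germline allele in every tissue, made from targeted embryonic stem cells, in which the start codon of Tmem203 and part of its 5′ untranslated region were replaced, and a short vector remnant with a recombinase site stays in the locus. All values are log2 signals, so a difference of 1 is a 2-fold change. The labels do not state that each array is a separate animal, and left and right testes were taken individually, so a p-value here is set against the variation among these arrays, which may in part be technical. With 4 and 5 arrays, their number limits the precision.

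In the seminiferous tubule, Sertoli cells take up glucose, run glycolysis and export lactate, which spermatocytes and spermatids import and oxidise. Late germ cells switch to their own isozymes. Pgk2, Pdha2 and Aldoart1 are intronless copies of genes used in other tissues, and the parent genes of Pgk2 and Pdha2, which are Pgk1 and Pdha1, lie on the X chromosome, which is silenced during male meiosis. Gapdhs and Ldhc encode the glyceraldehyde phosphate dehydrogenase and lactate dehydrogenase of spermatids and sperm, where part of glycolysis is anchored to the fibrous sheath of the tail.

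The promoters of 4 germ-cell isozymes and of Ldhd, the gene of the list with the largest difference between groups, are shown so that the genes whose signals stayed close between groups can be read beside the one that did not. Promoter windows of RefSeq (GRCm38.p6) matched 39 of the 43 genes. Each line holds the 250 bases before an annotated start, 5′ to 3′ on the gene's strand. Gapdhs and Ldhc had 2 windows each, of which 1 is shown. The window shown for Gapdhs lies inside the annotated gene (chr7:30729779-30744791). Capitals mark the motifs searched on both strands: TGACG, a site bound by factors of the CREB and CREM family, CCAAT, the GC box GGGCGG, and TATAAA. No motif overlapped another in these windows. The positions are Pgk2 at chr17:40208610-40208859 (minus strand), Gapdhs at chr7:30743682-30743931 (minus strand), Ldhc at chr7:46861013-46861262 (plus strand), Pdha2 at chr3:141212356-141212605 (minus strand) and Ldhd at chr8:111630337-111630586 (minus strand).
Pgk2: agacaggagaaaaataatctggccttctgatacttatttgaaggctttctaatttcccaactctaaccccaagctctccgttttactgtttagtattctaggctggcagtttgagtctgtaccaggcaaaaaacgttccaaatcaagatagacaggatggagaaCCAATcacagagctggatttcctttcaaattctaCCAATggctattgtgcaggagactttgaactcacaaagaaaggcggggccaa
Gapdhs: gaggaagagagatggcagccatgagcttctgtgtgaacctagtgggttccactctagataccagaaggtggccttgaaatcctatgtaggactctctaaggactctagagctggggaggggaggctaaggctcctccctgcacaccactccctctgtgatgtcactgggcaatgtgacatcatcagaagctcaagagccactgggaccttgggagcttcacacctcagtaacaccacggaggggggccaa
Ldhc: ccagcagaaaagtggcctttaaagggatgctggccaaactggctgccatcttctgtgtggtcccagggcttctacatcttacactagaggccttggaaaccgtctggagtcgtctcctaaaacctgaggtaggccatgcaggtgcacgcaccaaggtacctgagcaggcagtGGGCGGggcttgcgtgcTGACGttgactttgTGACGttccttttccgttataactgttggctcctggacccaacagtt
Pdha2: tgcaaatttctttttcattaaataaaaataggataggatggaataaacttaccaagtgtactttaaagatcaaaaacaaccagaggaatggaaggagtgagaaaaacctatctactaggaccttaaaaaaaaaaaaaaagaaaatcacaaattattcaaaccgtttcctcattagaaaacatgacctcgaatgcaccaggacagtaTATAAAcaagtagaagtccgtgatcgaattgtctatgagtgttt
Ldhd: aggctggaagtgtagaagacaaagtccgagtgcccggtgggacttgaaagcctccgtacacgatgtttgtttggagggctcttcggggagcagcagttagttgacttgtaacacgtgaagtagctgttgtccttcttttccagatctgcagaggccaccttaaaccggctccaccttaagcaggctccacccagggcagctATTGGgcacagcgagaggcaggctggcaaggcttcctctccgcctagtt

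The 5 windows did not share a motif. Ldhc held 2 copies of TGACG in the window shown, starting 61 and 47 bases before the start, and 1 GC box. Pgk2 held 2 copies of CCAAT, Pdha2 held 1 TATAAA, Ldhd held 1 CCAAT and Gapdhs held none of the 4 motifs. The second windows of Ldhc and Gapdhs, not shown, held none of the 4 motifs either. Over all 32851 windows of the same length, TGACG or its reverse was found in 17.8%, CCAAT in 33.8%, GGGCGG in 32.7% and TATAAA in 12.4%. Over the 55 windows of the listed genes the shares were 16.4%, 32.7%, 40% and 3.64%. A match is a stretch of letters and not a site in use.

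Tmem203 itself was lower in the null samples, at 9.11 ± 0.03 (log2 signal, mean ± SD, n = 5), than in the WT samples, at 9.81 ± 0.13 (mean ± SD, n = 4). The difference was -0.70 (SE 0.06, limma adjusted p = 2.87e-04), and the groups did not overlap. Whether this probe set lies outside the replaced stretch is not given in the sources used here, and if it does, it does not check the deletion. The germ-cell tissue of the labels was seen in the arrays: the protamine Prm1 had a mean of 14.68 in WT and 14.66 in null samples, and the synaptonemal complex gene Sycp3 had 12.15 and 12.12.

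Of the 40 genes in the fit, 5 differed between null and WT samples at an adjusted p under 0.05 (12.5%), against 10.6% of the 18193 genes read in the same way and 7.48% of all probe sets (4.12% higher and 3.36% lower, or 1856 and 1511 probe sets, which became 1381 and 1884 with each array centred on its median). Ldhd, Hk2 and Pfkl rose, and Aldoart1 and Pfkfb4 fell, while the other 35 did not pass the test. The background was 5.82% for higher and 4.82% for lower genes, so the share called was close to that of all genes. Taking for each gene the probe set with the smallest p, 7 listed genes passed, against 14.9% of all genes. The groups did not overlap in 7 of the 40 genes, 3 with the null samples above and 4 with them below, against 16.6% of all genes in either direction. Most differences in the list were small: 23 of the 40 were under 1.1-fold, the median size of the log2 difference was 0.07 against 0.10 over all genes, and the signed median was -0.01 against -0.02. Exactly 20 of the 40 lay above 0, and the differences ran from -0.35 (Eno2) to 0.71 (Ldhd). At the 1.5-fold limit of the study's methods, 1 gene, Ldhd, passed, where 1.81% of all genes did. In whole tissue, fewer cells of a type and less RNA per cell cannot be told apart.

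**Figure D1:**
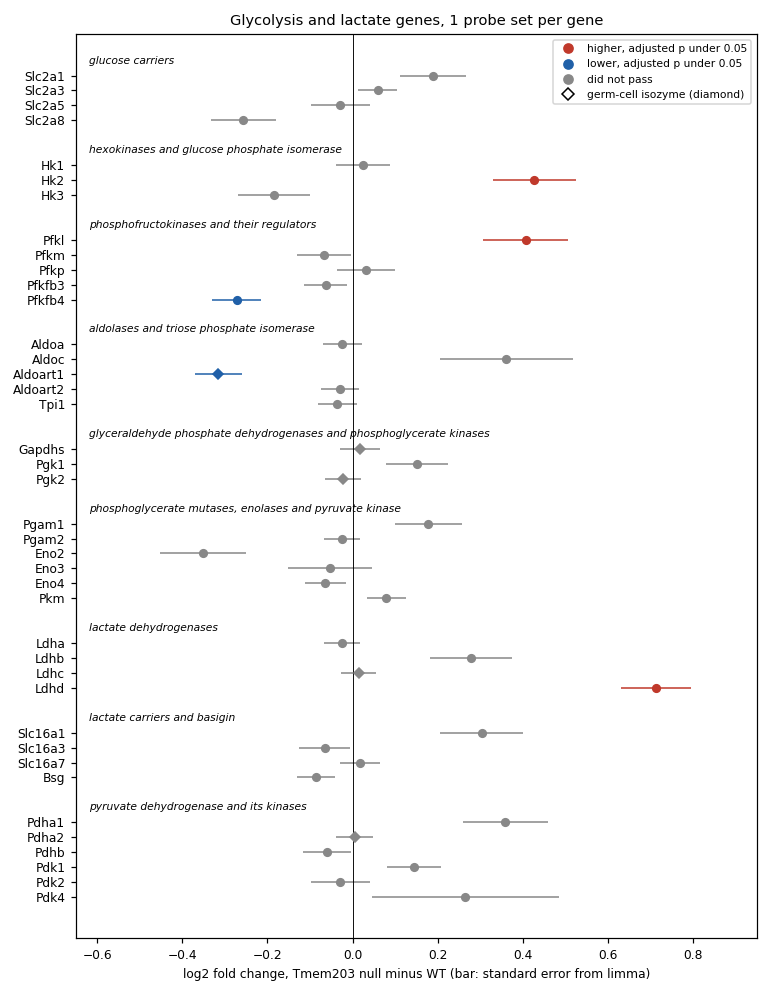
Difference in log2 signal between Tmem203 null and WT samples (x axis, null minus WT) for the 40 genes in the fit, grouped by role (y axis), with the standard error from limma as a bar and germ-cell isozymes as diamonds. Ldhd stands farthest from 0 at 0.71, Aldoart1 and Pfkfb4 are the 2 genes called lower, and the other 4 diamonds lie within 0.03 of 0.

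Of the germ-cell isozymes, 4 of 5 had differences of at most 0.02 in size, and Aldoart1 fell. The signs of these small differences carry no direction, since those of Gapdhs, Ldhc and Pdha2 turned with each array centred on its median. Pgk2, the phosphoglycerate kinase of late germ cells, had log2 signals of 13.84, 13.85, 13.89 and 13.84 in WT replicates 1 to 4 and of 13.82, 13.84, 13.84, 13.84 and 13.82 in null replicates 1 to 5. The groups overlapped, and the difference was -0.02 (SE 0.04, limma adjusted p = 0.797). Gapdhs had 13.79, 13.79, 13.67 and 13.77 in WT and 13.77, 13.81, 13.75, 13.76 and 13.77 in null samples. Its WT replicate 3 was the lowest of the 9 samples and the others lay together (difference 0.02, SE 0.05, limma adjusted p = 0.870).

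Ldhc, the lactate dehydrogenase of spermatocytes and later cells, had 14.69, 14.68, 14.69 and 14.67 in WT and 14.69, 14.72, 14.69, 14.70 and 14.69 in null samples. The difference was 0.01 (SE 0.04, limma adjusted p = 0.875), and the groups overlapped. The highest value of any probe set on an array was 14.77 to 14.79, so Ldhc was read just under the top of the scale. Pdha2, the intronless E1 alpha subunit of pyruvate dehydrogenase, had 13.32, 13.30, 13.24 and 13.33 in WT and 13.29, 13.30, 13.30, 13.32 and 13.31 in null samples (difference 0.00, SE 0.04, limma adjusted p = 0.961). The null samples lay inside the range of the WT samples.

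Over the genes of the whole array with a mean log2 signal of at least 13, 2.3% were called, and 10 of the listed genes lie in that range. The absence of a call for Pgk2, Gapdhs, Ldhc and Pdha2 is to be read against that share.

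Aldoart1, an intronless aldolase of spermatids, was the germ-cell isozyme that fell. Its log2 signals were 12.42, 12.38, 12.45 and 12.51 in WT and 12.05, 12.20, 12.11, 12.20 and 12.07 in null samples. The 5 null values all fell short of the lowest WT value. The difference was -0.32 (SE 0.05, limma adjusted p = 0.00780), which is a signal at 80.4% of WT. Aldoart1 was read by 1 probe set. Aldoart2, another intronless aldolase of the germ line, had a difference of -0.03 (SE 0.04, limma adjusted p = 0.729).

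Among the aldolases of other tissues, Aldoa had 13.67, 13.68, 13.73 and 13.61 in WT and 13.64, 13.68, 13.64, 13.65 and 13.64 in null samples. The groups overlapped (difference -0.02, SE 0.05, limma adjusted p = 0.795). All 5 probe sets of Aldoa are of the type that the manufacturer marks as open to cross-hybridization, and how far the germ-cell copies add to its signal was not tested. Aldoc, the aldolase best known from brain, differed by 0.36 (SE 0.16, limma adjusted p = 0.198). Triose phosphate isomerase, Tpi1, differed by -0.04 (SE 0.05, limma adjusted p = 0.695).

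The largest difference in the list was in Ldhd, the mitochondrial dehydrogenase of D-lactate. Its log2 signals were 6.99, 7.32, 7.15 and 6.95 in WT and 7.91, 7.77, 7.71, 7.79 and 7.88 in null samples. All null samples lay above all WT samples, with a gap wider than the range of either group. The difference was 0.71 (SE 0.08, limma adjusted p = 9.62e-04), a 1.64-fold higher signal. The second probe set of Ldhd moved the same way (0.65, SE 0.12, limma adjusted p = 0.0104). The study lists Ldhd among its changed genes from these same arrays, so its direction is not independent evidence.

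The other lactate dehydrogenases act on L-lactate. Ldha, the form that favours lactate production, had 13.58, 13.59, 13.56 and 13.55 in WT and 13.55, 13.56, 13.53, 13.55 and 13.54 in null samples (difference -0.03, SE 0.04, limma adjusted p = 0.763). These groups overlapped. Ldhb, the form that favours pyruvate, had 11.95, 12.14, 12.33 and 11.87 in WT and 12.52, 12.24, 12.32, 12.31 and 12.38 in null samples. WT replicate 3 lay among the null samples and the other WT samples lay below them, with a difference of 0.28 (SE 0.10, limma adjusted p = 0.112). Its other 3 probe sets differed by 0.29, 0.25 and 0.27, with limma adjusted p of 0.0630, 0.0275 and 0.0824, and in each of them the groups did not overlap.

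At the entry of glycolysis, Hk2, a hexokinase that traps glucose in the cell, rose. Its log2 signals were 11.25, 10.92, 11.14 and 11.33 in WT and 11.64, 11.36, 11.55, 11.62 and 11.76 in null samples. The groups did not overlap, though WT replicate 4 and null replicate 2 came within 0.04 of each other. The difference was 0.43 (SE 0.10, limma adjusted p = 0.0274, 1.34-fold). This call was lost in 5 of the 9 fits that each left out 1 array, those without WT replicate 2 or null replicates 1, 3, 4 or 5 (limma adjusted p = 0.0547 to 0.0691), and with the methods' t-test after Benjamini-Hochberg adjustment. Hk1, whose germ-cell transcript encodes the sperm hexokinase, differed by 0.02 (SE 0.06, limma adjusted p = 0.854), and Hk3 by -0.18 (SE 0.08, limma adjusted p = 0.223).

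None of the 4 glucose and fructose carriers passed the test. Slc2a1, the widely used carrier of Sertoli cells, differed by 0.19 (limma adjusted p = 0.172), Slc2a3, the carrier of germ cells, by 0.06 (limma adjusted p = 0.481) and Slc2a5, a fructose carrier, by -0.03 (limma adjusted p = 0.844). Slc2a8 was lower in all null samples than in all WT samples, with a difference of -0.26 (SE 0.08) that did not pass (limma adjusted p = 0.0698).

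Of the phosphofructokinases, which commit sugar to glycolysis, Pfkl, the liver-type subunit, rose. Its log2 signals were 8.56, 8.81, 8.68 and 8.61 in WT and 9.41, 9.06, 8.99, 8.93 and 8.97 in null samples. Null replicate 1 was the highest, and all null samples lay above the WT samples. The difference was 0.41 (SE 0.10, limma adjusted p = 0.0343, 1.33-fold). This call was lost without WT replicates 1, 3 or 4 or null replicates 2, 3 or 5 (limma adjusted p = 0.0545 to 0.0806), and with the methods' t-test after Benjamini-Hochberg adjustment. The other 2 probe sets of Pfkl differed by 0.43 and 0.23 and did not pass (limma adjusted p = 0.0579 and 0.152). Pfkm, the muscle type, and Pfkp, the platelet type, differed by -0.07 and 0.03 (limma adjusted p = 0.566 and 0.817).

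Pfkfb4, the testis form of the enzyme that makes and removes fructose 2,6-bisphosphate, the activator of phosphofructokinase, fell. Its log2 signals were 9.59, 9.68, 9.63 and 9.65 in WT and 9.46, 9.40, 9.43, 9.31 and 9.24 in null samples. No null sample reached the lowest WT sample. The difference was -0.27 (SE 0.06, limma adjusted p = 0.0198), a signal at 82.8% of WT. The call was lost without WT replicate 2 (limma adjusted p = 0.0590) and without null replicate 4 (limma adjusted p = 0.0511). Pfkfb3, the widely expressed form, was read by 2 probe sets of opposite sign, at -0.06 (limma adjusted p = 0.499) and 0.38 (limma adjusted p = 0.0782), so no direction is given for it.

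**Figure D2:**
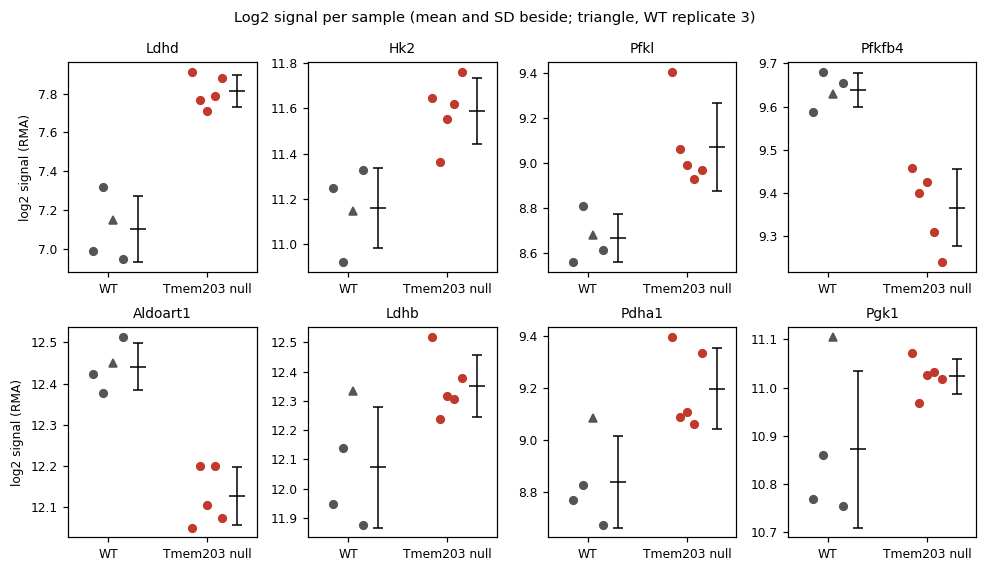
Log2 signal (y axis, a separate range per gene, not starting at 0) of each WT sample (grey, n = 4) and each Tmem203 null sample (red, n = 5) for 8 genes, with the group mean and SD beside the points and WT replicate 3 as a triangle. The groups do not overlap for Ldhd, Hk2, Pfkl, Pfkfb4 and Aldoart1, and for Ldhb, Pdha1 and Pgk1 WT replicate 3 lies in or above the range of the null samples.

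None of the measured phosphoglycerate kinases, mutases, enolases or pyruvate kinase passed in the fit. Pgk1, the X-linked phosphoglycerate kinase, had 10.77, 10.86, 11.11 and 10.75 in WT and 11.07, 10.97, 11.03, 11.03 and 11.02 in null samples (difference 0.15, SE 0.07, limma adjusted p = 0.253). WT replicate 3 was the highest of all 9 and the other WT samples the lowest. Among the mutases, enolases and pyruvate kinase, Pgam1 differed by 0.18, Pgam2, the muscle and sperm form, by -0.03, Eno3 by -0.05, Eno4, the enolase of the sperm tail, by -0.06 and Pkm by 0.08, with limma adjusted p between 0.206 and 0.792. Eno2, the neuronal enolase, had the most negative difference of the list (-0.35, SE 0.10), with overlapping groups and a limma adjusted p of 0.0624.

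Gapdh, the glyceraldehyde phosphate dehydrogenase used as a reference in many assays, was read by control probe sets for the 3′ end, the middle and the 5′ end. At the 3′ end its log2 signals were 12.92, 12.96, 13.02 and 12.90 in WT and 13.10, 13.02, 13.04, 13.02 and 13.05 in null samples. WT replicate 3 touched the lowest null samples and the others lay below, with a difference of 0.10 (exact permutation test, two-sided p = 0.0159). The difference was 0.18 at the 5′ end, where all null samples lay above all WT samples (exact permutation p = 0.0159). In the middle it was 0.14, with overlapping groups (exact permutation p = 0.0714). The 3 beta-actin control probe sets were higher in all null samples, by 0.07, 0.10 and 0.08 (exact permutation p = 0.00794 each, the smallest that 4 against 5 samples allow). The 3′ minus 5′ difference of Gapdh is a measure of how complete the labelled RNA is. It had a mean ± SD of 0.93 ± 0.01 over the 4 WT arrays and of 0.85 ± 0.04 over the 5 null arrays (exact permutation p = 0.0238). All null arrays lay below all WT arrays in this measure. That of beta-actin differed by -0.03, with overlapping groups (exact permutation p = 0.341). The part of RNA completeness in the differences of the list was not tested.

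The carriers that move lactate and pyruvate across the cell membrane did not pass. Slc16a1 differed by 0.30 (SE 0.10, limma adjusted p = 0.0899), Slc16a3, the exporter of glycolytic cells, by -0.07 (limma adjusted p = 0.556) and Slc16a7, a carrier of germ cells, by 0.02 (limma adjusted p = 0.854). Bsg, basigin, the membrane partner of these carriers, had a difference of -0.09 (SE 0.04) with no overlap between the groups and did not pass (limma adjusted p = 0.285).

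At pyruvate dehydrogenase, which feeds pyruvate to the citric acid cycle, Pdha1, the X-linked E1 alpha subunit, had 8.77, 8.83, 9.08 and 8.67 in WT and 9.40, 9.09, 9.11, 9.06 and 9.33 in null samples. Apart from WT replicate 3, the WT samples lay below the null samples. The difference was 0.36 (SE 0.10) and did not pass (limma adjusted p = 0.0569), whereas its second probe set, at 0.25, did (SE 0.06, limma adjusted p = 0.0444). Pdhb, the E1 beta subunit, differed by -0.06, and the inhibitory kinases Pdk1, Pdk2 and Pdk4 by 0.14, -0.03 and 0.27, with limma adjusted p between 0.202 and 0.840.

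The germ-cell isozymes were then set against their somatic counterparts within each array, as the log2 signal of one minus that of the other, expressed relative to the WT mean because signals of different probe sets have no common scale. Exact permutation tests (two-sided) were adjusted over the 5 pairs. Aldoart1 minus Aldoa was -0.02, -0.07, -0.05 and 0.14 in WT and -0.36, -0.24, -0.31, -0.22 and -0.33 in null samples. The groups did not overlap, and the difference was -0.29 (exact permutation p = 0.00794, adjusted 0.0198). Aldoa itself differed by -0.02, so this pair restates the fall of Aldoart1 in the same values and is not separate evidence.

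Ldhc minus Ldha was 0.00, -0.02, 0.02 and 0.01 in WT and 0.03, 0.04, 0.05, 0.03 and 0.04 in null samples. The groups did not overlap, but the difference was 0.04 on the log2 scale (exact permutation p = 0.00794, adjusted 0.0198), and Ldhc lay close to the top of the scale. Pgk2 minus Pgk1 was 0.08, 0.01, -0.20 and 0.11 in WT and -0.24, -0.11, -0.17, -0.17 and -0.18 in null samples. WT replicate 3 lay within the null samples, and the difference of -0.17 did not pass (exact permutation p = 0.0635, adjusted 0.0794).

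Pdha2 minus Pdha1 was 0.09, 0.01, -0.30 and 0.20 in WT and -0.57, -0.25, -0.27, -0.20 and -0.48 in null samples. Again WT replicate 3 lay within the null samples, and the difference of -0.35 did not pass after adjustment (exact permutation p = 0.0476, adjusted 0.0794). Gapdhs minus Gapdh was 0.07, 0.02, -0.15 and 0.07 in WT and -0.14, -0.01, -0.10, -0.08 and -0.09 in null samples (difference -0.08, exact permutation p = 0.143, adjusted 0.143). In the pairs of Pgk and Pdha the difference came with a somatic isozyme whose mean was higher in the null samples and a germ-cell isozyme that differed by 0.02 or less.

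**Figure D3:**
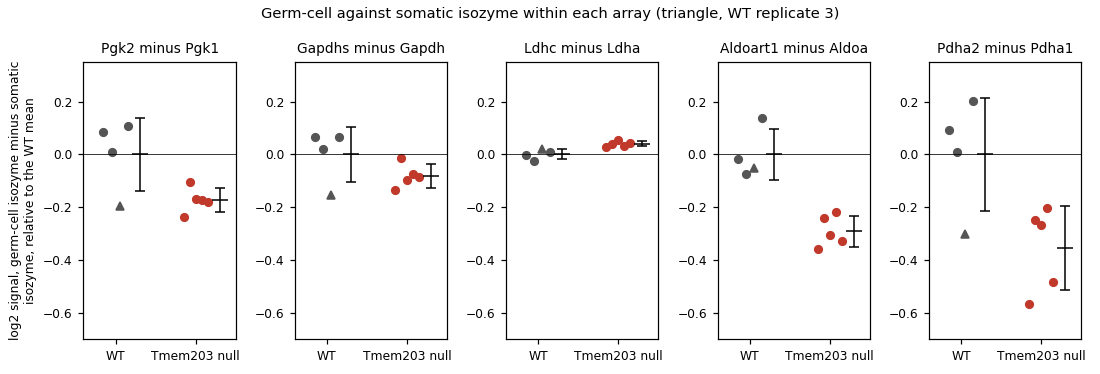
Log2 signal of the germ-cell isozyme minus that of the somatic isozyme within each array, relative to the WT mean (y axis, the same in all panels), for 5 pairs in WT (grey, n = 4) and Tmem203 null samples (red, n = 5), with mean and SD beside the points and WT replicate 3 as a triangle. Aldoart1 minus Aldoa is lower in all null samples by 0.29, Ldhc minus Ldha differs by 0.04, and in the other 3 pairs WT replicate 3 lies within or below the range of the null samples.

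WT replicate 3 stood apart from the other WT samples in part of the list. Its highest correlation with any other array was 0.996, a small step below the 0.997 to 0.998 of the other arrays. In 7 genes (Slc2a1, Aldoc, Pgk1, Pgam1, Ldhb, Pdha1 and Pdk1) the other 3 WT samples lay below all null samples and WT replicate 3 did not, a pattern of 3.80% of all genes, and in 2 genes (Aldoart2 and Eno4) the reverse held, against 2.74%. Without this array, 9 of the 40 genes passed, where 11.2% of all genes did (6.87% higher). Hk2, Pfkfb4, Aldoart1 and Ldhd stayed called and Pfkl did not (limma adjusted p = 0.0545). The 5 genes gained were Aldoc at 0.53, Pgk1 at 0.23, Pgam1 at 0.26, Ldhb at 0.37 and Pdha1 at 0.44. All 5 are among the 7 genes picked above by the place of this array. Their gain and its direction therefore follow from that choice, and the differences are given as values only. Without WT replicate 3 the pair differences of Pgk2 and Pgk1 and of Gapdhs and Gapdh were -0.24 and -0.13. These too are given as values only, since this array was the WT sample that lay with or beyond the null samples.

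**Figure D4:**
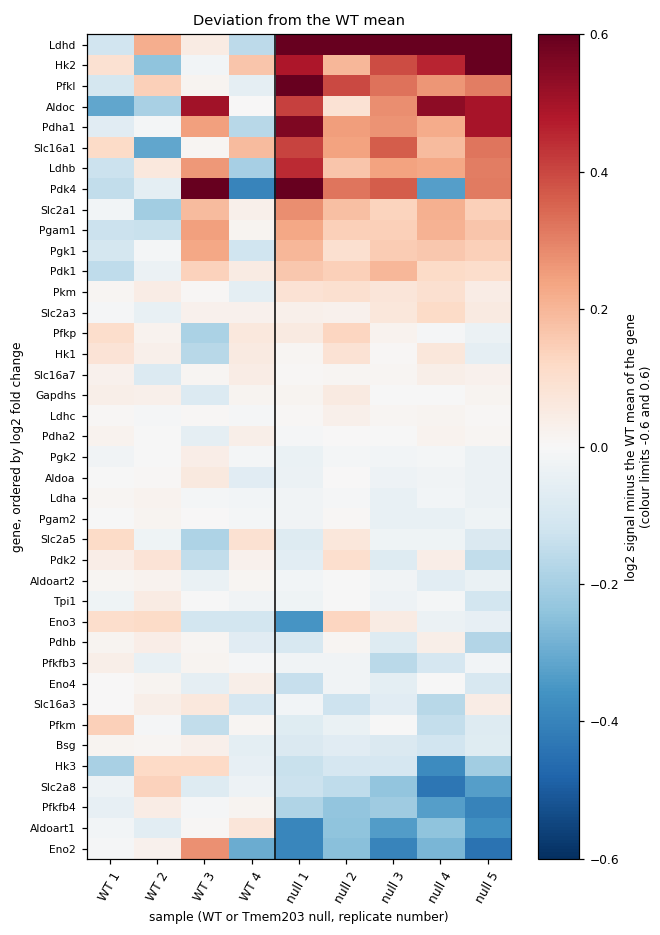
Log2 signal of each gene minus its WT mean (colour, limits -0.6 and 0.6, values beyond them drawn at the limit) in the 4 WT and 5 Tmem203 null samples (columns), for the 40 genes in the fit ordered by log2 fold change (rows). In the upper rows WT replicate 3 shares the red of the null samples for genes such as Aldoc, Ldhb, Pgam1 and Pgk1. For Ldhd, Hk2 and Pfkl it does not. The rows of the germ-cell isozymes other than Aldoart1 are near white throughout, and in other middle rows, such as Pfkp and Hk1, WT replicate 3 lies below the WT mean.

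Markers of some somatic cell types moved with the genotype. Over all genes, 5.82% were called higher in null samples and 4.82% lower. The marker lists were also chosen with earlier results of these data known. Of 12 measured Sertoli cell markers, 8 were higher and 0 lower in null samples, with a median difference of 0.29, and the mean log2 signal over the list was 10.35 to 10.52 in WT, highest in WT replicate 3, and 10.62 to 10.78 in null samples. Of 7 Leydig cell markers, 3 were higher, with a median of 0.37, and the list mean was 11.03 to 11.51 in WT, again highest in WT replicate 3, and 11.43 to 11.70 in null samples. Of 8 macrophage markers, 2 were higher (Mrc1 and Cx3cr1). None of 7 peritubular myoid cell markers passed (median -0.08), and of 8 endothelial markers 0 were higher and 2 lower (Egfl7 and Vwf). Of 10 measured spermatogonia markers 1 was higher (Kit, by 0.65) and 1 lower (Sohlh1, by 0.40). Gfra1 differed by -0.17 on its probe set with the highest mean (limma adjusted p = 0.153). The study lists Gfra1 as higher from these same arrays, so no direction is given for it. Kit, Spink8 and the Leydig cell marker Hsd3b1 are also among the study's higher genes and are not independent evidence. Of 12 spermatocyte markers 1 was lower (Dmc1). None of 11 round and 12 elongating spermatid markers passed, with medians of -0.06 and -0.01, and Tnp1 is in both lists. The list mean for round spermatids was 13.12 to 13.23 in WT and 13.07 to 13.15 in null samples. For elongating spermatids it was 13.87 to 13.92 in both groups. Of all genes with a mean log2 signal of at least 13, 2.3% were called. The absence of a call at this level is to be read against that share and does not measure how many spermatids were present. Of 6 measured epididymis markers 1 was higher (Spink8) and 1 lower (Lcn5). The means of Lcn5, 4.24 in WT and 3.90 in null samples, lay under the detection limit, a log2 signal of 5. Pgk2 is itself 1 of the round spermatid markers. The part of these cell types in the differences of the list was not tested.

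Wider sets of the same metabolism were read in the same way, against the 10.6% of all genes that were called. These sets were written with earlier results of these data known, so their shares are not independent evidence. The study lists Emb and Ppp1r3b among its changed genes from these same arrays. Of 14 lactate and monocarboxylate genes, 2 were higher and 2 lower (28.6% called). This share includes Slc5a8, which differed by -0.41 (limma adjusted p = 0.0362). Its means of 4.06 in WT and 3.65 in null samples lay under the detection limit, a log2 signal of 5. The largest difference was in Emb, embigin, a membrane partner of monocarboxylate carriers, with log2 signals of 8.10, 8.64, 8.73 and 8.46 in WT and 9.68, 9.30, 9.44, 9.33 and 9.45 in null samples. All null samples lay above the WT samples (difference 0.96, SE 0.13, limma adjusted p = 0.00199, 1.94-fold). Me3, a mitochondrial malic enzyme, fell by 0.46 (limma adjusted p = 0.00288).

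Of 9 genes of pyruvate entry, 2 rose (22.2% called): Pdp2, a phosphatase that activates pyruvate dehydrogenase, by 0.43 (limma adjusted p = 0.00482), and Pdpr, a regulatory subunit of that phosphatase, by 0.27 (limma adjusted p = 0.0114). Of 12 other sugar carriers and hexokinases 1 rose, Slc2a12 by 0.32 (limma adjusted p = 0.0201). Of 19 side and regulatory enzymes, Gpd1l rose by 0.45 (limma adjusted p = 0.0173) and Pfkfb2, a relative of Pfkfb4, fell by 0.30 (limma adjusted p = 0.0214). In the pentose phosphate pathway and glycogen metabolism, 2 of 19 rose and 1 fell (15.8% called). These were Ppp1r3c and Ppp1r3b, which bring a phosphatase to glycogen, at 0.48 and 0.76 (limma adjusted p = 0.00462 and 0.0478), and Rpe, an epimerase of the pentose phosphate pathway, at -0.27 (limma adjusted p = 0.0191).

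None of 19 citric acid cycle genes passed (median difference 0.03), and none of 11 genes of the fibrous sheath did (median -0.01). With no called gene in either list at the limma threshold, their list means ran from 11.20 to 11.31 in WT and 11.29 to 11.36 in null samples for the cycle, and from 12.99 to 13.04 and 12.95 to 13.01 for the sheath.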

How the data were processed

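Testis RNA of WT mice (4 samples) and Tmem203 null mice (5 samples) was profiled on 1 Affymetrix array per sample. The deposited file holds 1 log2 signal for each probe set and array, which the authors made by Robust Multichip Average (background adjustment, quantile normalization across arrays and summarization). The submitters' processing notes name limma without a version. Array medians were 6.96 to 7.05, and their number sets the precision. Scan dates and scanner values were not used here, so batches could not be tested.

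Groups came from the labels. The null minus WT difference was fitted by limma version 3.58.1 (lmFit, then eBayes; R 4.3.3) over 45037 probe sets without 64 control probe sets, with Benjamini-Hochberg adjustment over all of them and a threshold of 0.05. Symbols came from the platform annotation: 34945 probe sets had 1 gene (34741 matched to RefSeq), 932 several and 9160 none. Control probe sets and isozyme pairs were tested by exact permutation of samples. The members and gene lists were chosen with earlier results of these data known. Full values are given for the 5 germ-cell isozymes of the list and their counterparts, and for genes with a called probe set, and from wider lists for at most 3 called genes with the smallest p. The fit was tested on simulated data. Alternatives were the scaling, the variance model, array weights, filters, the choice of probe set, a t-test, the replicate block and each array left out. The t-test is that of the study's general statistics and not of its array methods, which name limma.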

Additional observations from a re-analysis of the deposited data

Results flagged for a closer look

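In 4 of the 92 groups of values examined (each gene or isozyme pair in each genotype), 1 sample lay far from the rest of its group. Chance flags about 1 in 20 groups, or 4.6 of 92. Pfkl was 9.41 in null replicate 1, against 8.93 to 9.06 in the other null samples. Tpi1 was 12.79 in null replicate 5, against 12.87 to 12.90. In WT replicate 3, Aldoart2 was 13.41 against 13.46 to 13.47, and Gapdhs was 13.67 against 13.77 to 13.79.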

How the results depend on the processing

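Of the listed genes, 5 passed as reported. The count was 8 with a trended and robust variance model, 10 with the mean over detected probe sets and 1 with the 1.5-fold and detection limits. It was 3 with the t-test of the study's general statistics after a Benjamini-Hochberg adjustment added here (7 at its unadjusted threshold of 0.01). Leaving out each array gave 3 to 9. Over all probe sets 3367 passed, 2058 with that t-test, 581 with the 1.5-fold and detection limits, and 1925 to 3603 leaving out each array. The labels do not state that equal replicate numbers pair the samples. Deviations from the group mean correlated at -0.06 to 0.08 between samples of equal number, which cannot exclude a pairing. With the replicate block 1174 probe sets and 2 listed genes, Hk2 and Ldhd, passed. The 1.5-fold limit left Ldhd alone, and the t-test after adjustment lost Hk2 and Pfkl. In the 17 other limma fits, Ldhd passed in all, Aldoart1 was lost with the block (limma adjusted p = 0.0766), Pfkfb4 in 3 including the block, Hk2 in 5 that left out an array, and Pfkl in 8, with the block and without probe sets of shared probes among them (up to 0.163).

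Leaving out each array, the Pdha2 and Pdha1 pair ran from -0.45 to -0.29, that of Pgk2 and Pgk1 from -0.24 to -0.14 and that of Gapdhs and Gapdh from -0.13 to -0.060. The Pdha2 pair was -0.32 after a further quantile normalization (exact permutation p = 0.0556) and the Pgk2 pair -0.17 with the mean over detected probe sets (exact permutation p = 0.0397). No called gene or pair changed sign. Of genes not called, Gapdhs, Ldhc and Pdha2 became -0.02, -0.02 and -0.03 with each array centred on its median, and over all probe sets that setting gave 1381 higher and 1884 lower in place of 1856 and 1511. The t-test after adjustment gave 971 and 1087. Without probe sets whose suffix marks probes shared between transcripts, Aldoa and Ldha had none left, so their pairs could not be fitted. For Gapdh and the control ratios, leaving out arrays was chosen after seeing the data; the Gapdh difference lost its call without null replicates 1, 3, 4 or 5 (exact permutation p up to 0.0571). Scanner values were not used here, so saturation near the top of the signal scale was not tested.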
